A study of Mus musculus with 12 samples.

Results

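A set of 10 genes of the Wnt pathway's feedback loop were followed in mouse metaplastic breast tumour cells, and the rule for choosing them was that the symbol in the count table is Axin2, Notum, Apcdd1, Bambi, Nkd1, Nkd2, Znrf3, Rnf43, Ccnd1 or Myc. All 10 were found among the 55492 features of the table. Counts sufficed to test 8 of the 10 among the 15052 genes tested, and Nkd1 and Rnf43 had too few. RNA of CCN6KOT cells, a primary line from a spindle metaplastic breast tumour, was sequenced after lentiviral transduction and selection with puromycin. There were 4 groups of 3 libraries. The first carried a dominant negative TCF4 construct plus a second construct labelled EZH2 (DNTCF4_EZH2), and the next carried the dominant negative construct plus another labelled SET (DNTCF4_SET). The third carried the dominant negative construct with the word Vector in place of a second construct (DNTCF4), and the last carried the control lentivirus (Vector). The labels do not expand SET, or the term PPGS in the titles of the Vector libraries. All groups came from the same line, whose name refers to Ccn6, and no label tells whether libraries of 1 group are separate cultures. A p-value here therefore rests on the spread within groups of 3 libraries that may be technical repeats. That spread was estimated in 1 fit over all 12 libraries, not separately for the groups compared. The series names 3 comparisons by its design: cells with the dominant negative construct against control cells, and each added construct, called a rescue there, against DNTCF4 alone.

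In canonical Wnt signalling, ligand binding to Frizzled and LRP receptors lets beta-catenin escape a degradation complex and enter the nucleus, where it activates genes together with TCF and LEF factors. Among the genes it activates in many tissues are the pathway's own brakes: Axin2 rebuilds the degradation complex, Notum inactivates the ligand outside the cell, Znrf3 and Rnf43 remove the receptors, and the Naked proteins Nkd1 and Nkd2 bind Dishevelled. Axin2 is therefore widely read as a reporter of pathway output, and Ccnd1 and Myc are the classical growth targets. TCF4 is the protein of the gene Tcf7l2, and EZH2 is the histone methyltransferase of the Polycomb complex PRC2.

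The dominant negative construct went with opposite changes among these genes. Axin2, Notum, Znrf3 and Ccnd1 fell in DNTCF4, by log2 fold changes of -1.85, -2.79, -0.43 and -1.03. The Wnt inhibitor gene Apcdd1 rose there by 3.66, and Bambi, a Wnt target that damps TGF-beta and BMP signalling, rose by 1.3. Nkd2 and Myc did not pass the test. With the second constructs, Notum, Apcdd1 and Bambi rose relative to DNTCF4 in both groups, and Axin2 did not pass the test in either: it stood at 0.82 ± 0.106 CPM in DNTCF4_EZH2, 0.906 ± 0.0989 CPM in DNTCF4_SET and 0.826 ± 0.109 CPM in DNTCF4, against 2.99 ± 0.463 CPM in Vector (SD, n = 3 each). CPM are counts per library size, scaled to the same total in each library. Each change is a log2 fold change, given with its standard error as SE. The test was edgeR's quasi-likelihood test, its p-values were adjusted by Benjamini-Hochberg over all genes tested, and a gene is called, or passes, below 0.05. In libraries made from many cells, fewer cells expressing a gene and less of its RNA per cell cannot be told apart.

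In counts, 6 of the 8 tested genes passed in DNTCF4 against Vector, 2 higher and 4 lower, where 57.5% of all genes tested passed, 29.5% higher and 28% lower. With so large a share, the count of 6 says little of the 8 as a set. In DNTCF4_EZH2 against DNTCF4, 4 rose and 1 fell, where 25.5% of all genes passed, 13% higher and 12.5% lower. The same numbers, 4 and 1, were found in DNTCF4_SET against DNTCF4, where 26% of all genes passed, 12.7% higher and 13.3% lower. The 2 comparisons share the DNTCF4 libraries, so their likeness is not independent. Between DNTCF4_EZH2 and DNTCF4_SET 1 gene passed, Ccnd1, where 5.16% of all genes passed, 3% higher and 2.17% lower. Against Vector, 2 rose and 5 fell in DNTCF4_EZH2, where 57.7% of all genes passed, 28.7% higher and 29% lower. In DNTCF4_SET 3 rose and 5 fell against Vector, where 58% of all genes passed, 28.1% higher and 29.9% lower. The median log2 fold change of the 8 was -0.25 in DNTCF4 against Vector, beside 0.01 over all genes tested, 0.12 in DNTCF4_EZH2 against DNTCF4 and 0.32 in DNTCF4_SET against DNTCF4, beside 0 for both over all genes.

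Library totals ran from 23597545 to 33999982 counts, and 3 counts in a library, taken as the detection floor, correspond to 0.0879 to 0.126 CPM. DNTCF4 replicate 1 stood apart from its group: a chi-square comparison of counts gave 19.8 and 12.5 per degree of freedom for its pairs with replicates 2 and 3, and 3.26 for the pair of these. The DNTCF4_EZH2 libraries also spread, with 15.8 for replicates 1 and 2, 6.19 for 1 and 3 and 5.91 for 2 and 3, while pairs within DNTCF4_SET and Vector gave 2.43 to 4.03. Of the 8 tested genes only Nkd2 lost a call without DNTCF4 replicate 1, in DNTCF4_SET against DNTCF4, as given below. The construct genes followed the labels for Tcf7l2, at 43.4 to 46.6 CPM in DNTCF4_EZH2, 32.5 to 37.8 in DNTCF4_SET and 37 to 41.4 in DNTCF4, against 8.62 to 13.6 in Vector. Counts on Ezh2 were 428 to 469 CPM in DNTCF4_EZH2, 509 to 574 in DNTCF4_SET and 62.7 to 68.8 in DNTCF4, against 56.4 to 59.5 in Vector, so that both second constructs went with high Ezh2 counts. The gene Set was not raised in DNTCF4_SET: it averaged 535 ± 9.34 CPM in DNTCF4_EZH2, 550 ± 17.2 CPM in DNTCF4_SET and 616 ± 43.5 CPM in DNTCF4, against 686 ± 18.7 CPM in Vector. Ctnnb1, which encodes beta-catenin, averaged 1540 ± 17.2 CPM in DNTCF4_EZH2, 1570 ± 14.7 CPM in DNTCF4_SET and 1490 ± 76.8 CPM in DNTCF4, against 875 ± 9.07 CPM in Vector, and rose in DNTCF4 over Vector (log2 0.77, adjusted p = 7.7e-11). The keratin genes Krt8 (79.6 to 89.5 CPM) and Krt18 (227 to 262) and the mesenchymal genes Vim (612 to 1060) and Zeb1 (71.3 to 94.8) were present in every library, while Epcam (0.11 to 0.94) and Cdh1 (0.381 to 1.15) were low and Twist1 had no count. The 6 mesenchymal markers summed to 5920 to 6040 CPM in DNTCF4_EZH2, 5450 to 5890 in DNTCF4_SET and 4610 to 5140 in DNTCF4, against 10400 to 11300 in Vector, most of it Fn1. Among them Col1a1 averaged 403 ± 21.1 CPM in DNTCF4_EZH2, 353 ± 4.55 CPM in DNTCF4_SET and 279 ± 21.7 CPM in DNTCF4, against 1000 ± 75.4 CPM in Vector, while Prrx1 averaged 103 ± 1.52 CPM in DNTCF4_EZH2, 116 ± 5.42 CPM in DNTCF4_SET and 87.4 ± 5.72 CPM in DNTCF4, against 19.8 ± 0.622 CPM in Vector. The 6 epithelial markers summed to 316 to 351 CPM over all 12 libraries, most of it Krt18 and Krt8. Among the others, Krt14 (0.0381 to 0.338 CPM) and Krt5 (0 to 0.0586) were near or below the detection floor. Epcam averaged 0.679 ± 0.0371 CPM in DNTCF4_EZH2, 0.745 ± 0.276 CPM in DNTCF4_SET and 0.223 ± 0.101 CPM in DNTCF4, against 0.215 ± 0.134 CPM in Vector. The mesenchymal markers did not share a direction. Zeb1 averaged 87.1 ± 7.2 CPM in DNTCF4 and 74.1 ± 2.45 CPM in Vector, and Vim averaged 645 ± 29.9 CPM in DNTCF4 and 1020 ± 36 CPM in Vector. The part of these marker differences in the results below was not tested. Over all 12 libraries the 6 leukocyte markers summed to 1.36 to 2.55 CPM, the 4 endothelial markers to 1.8 to 4.47 CPM, and the 3 adipocyte markers to 7.65 to 12.9 CPM, most of it Fabp4. Of 2003 olfactory and vomeronasal receptor genes, 241 to 311 had a count in the DNTCF4_EZH2 libraries, 325 to 472 in DNTCF4_SET and 69 to 81 in DNTCF4, against 550 to 774 in Vector. The part of these stray counts in the results below was not tested.

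Per length, the 10 genes spanned a wide range. In Vector the order by RPKM, CPM divided by the kilobases of exon, was Myc (89.9 ± 1.26), Ccnd1 (71.4 ± 2.13), Notum (7.24 ± 0.241), Znrf3 (4.47 ± 0.227), Axin2 (0.543 ± 0.0841), Nkd2 (0.43 ± 0.0463) and Bambi (0.148 ± 0.00927), followed by Rnf43 (0.0244 ± 0.0178), Apcdd1 (0.015 ± 0.00233) and Nkd1 (0.00883 ± 0.00921) (SD, n = 3). The libraries' ranges did not overlap between neighbours down to Bambi, and they overlapped among Rnf43, Apcdd1 and Nkd1. In DNTCF4 the order changed: Notum (1.04 ± 0.177 RPKM) lay below Znrf3 (3.31 ± 0.156), and Axin2 (0.15 ± 0.0198) lay below Nkd2 (0.521 ± 0.0418), Bambi (0.365 ± 0.0189) and Apcdd1 (0.193 ± 0.0122). Both growth targets stood well above every feedback gene in all groups.

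**Figure D1:**
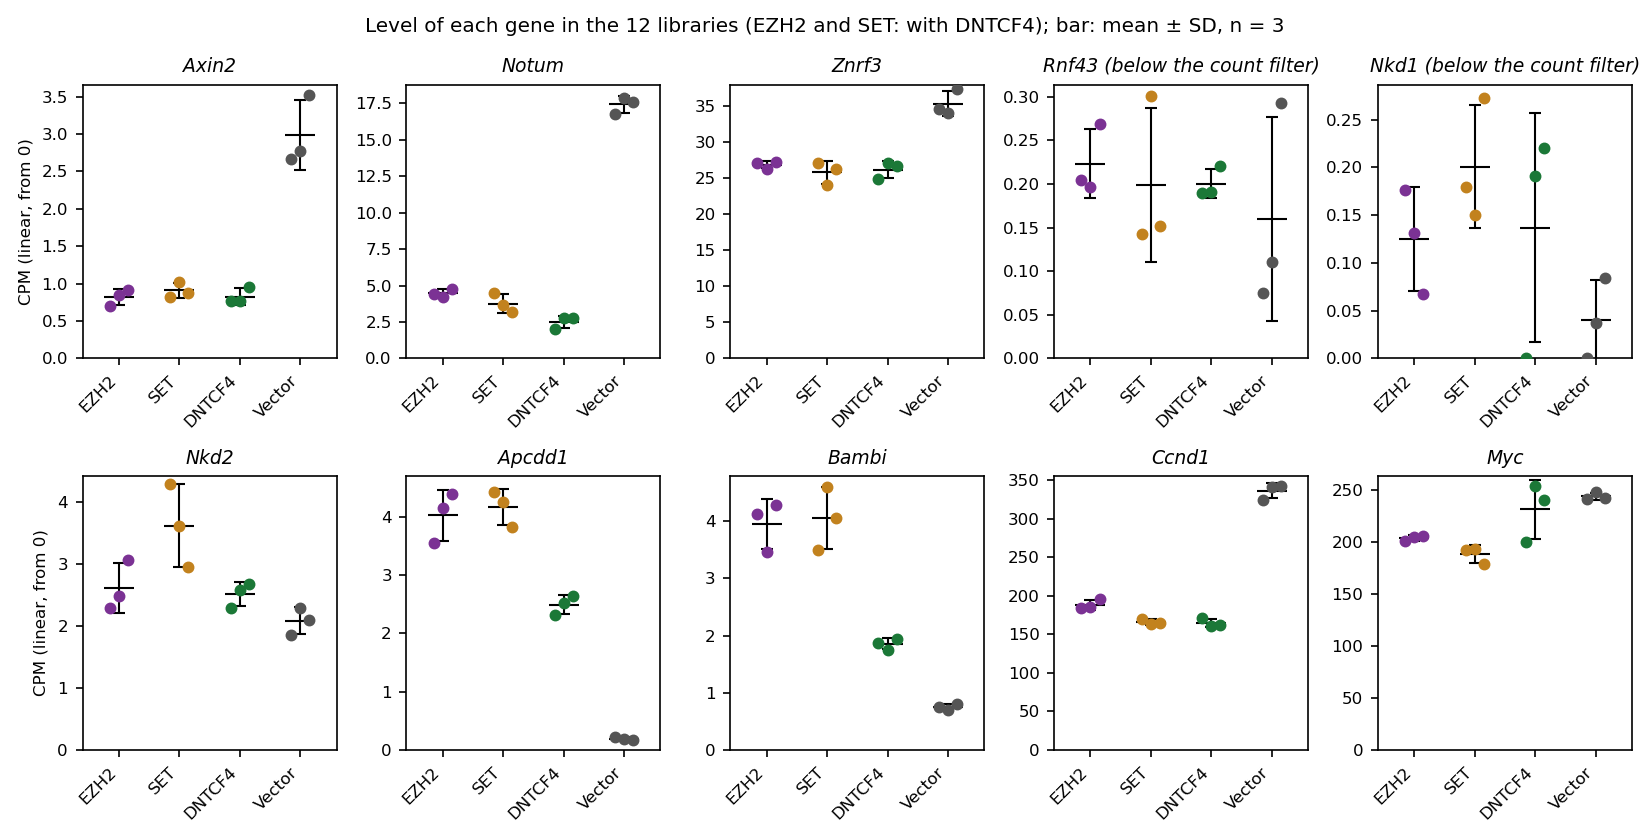
CPM of each of the 10 genes (vertical axis, linear, from 0, with its own scale per gene) in the 12 libraries, as points for DNTCF4_EZH2 (EZH2), DNTCF4_SET (SET), DNTCF4 and Vector; bars show mean ± SD (n = 3). Axin2, Notum, Znrf3 and Ccnd1 lie highest in Vector, with Notum between 16.8 and 17.9 CPM there, while Apcdd1 and Bambi lie lowest in Vector and highest in the 2 groups with a second construct.

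Axin2 (ENSMUSG00000000142), the scaffold of the degradation complex that Wnt signalling itself induces, lies on chromosome 11 at chr11:108920349-108950783 on the plus strand (GRCm38). It had 0.703, 0.849 and 0.909 CPM in the DNTCF4_EZH2 libraries, 0.822, 1.02 and 0.88 CPM in DNTCF4_SET, and 0.762, 0.764 and 0.952 CPM in DNTCF4, against 2.67, 2.77 and 3.52 CPM in Vector. The 9 libraries with the dominant negative construct lay together, overlapping between groups, and all below the 3 Vector libraries. Axin2 was 3.6-fold lower in DNTCF4 than in Vector (log2 -1.85, SE 0.19, adjusted p = 8.53e-07), 3.63-fold lower in DNTCF4_EZH2 (adjusted p = 6.46e-07) and 3.29-fold lower in DNTCF4_SET (adjusted p = 1.48e-06). Its difference to DNTCF4 was -0.01 in DNTCF4_EZH2 (95% interval -0.48 to 0.46, adjusted p = 0.976) and 0.13 in DNTCF4_SET (-0.34 to 0.6, adjusted p = 0.724), on the log2 scale. The intervals leave room for changes of up to 0.6 on the log2 scale, since Axin2 rests on 70 to 79 counts per group outside Vector, where it had 230. An antisense gene that overlaps its exons, Gm11670, had 0 counts in every library.

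The bases just upstream of the annotated start are shown for Axin2, which fell, and for Nkd2, which did not pass that test. A direct target can have a TCF site near its start, but such sites can also lie elsewhere. RefSeq promoter sequences (GRCm38.p6) matched 4 of the 10 genes: Axin2, Nkd1, Nkd2 and Rnf43. Both are given 5′ to 3′ on the gene's strand, at chr11:108920099-108920348 (plus strand) for Axin2 and chr13:73847632-73847881 (minus strand) for Nkd2.
Axin2: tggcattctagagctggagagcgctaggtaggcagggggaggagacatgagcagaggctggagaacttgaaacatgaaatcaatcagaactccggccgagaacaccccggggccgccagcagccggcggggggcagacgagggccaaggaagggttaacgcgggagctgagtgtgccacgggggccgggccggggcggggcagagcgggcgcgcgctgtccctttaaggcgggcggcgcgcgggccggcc
Nkd2: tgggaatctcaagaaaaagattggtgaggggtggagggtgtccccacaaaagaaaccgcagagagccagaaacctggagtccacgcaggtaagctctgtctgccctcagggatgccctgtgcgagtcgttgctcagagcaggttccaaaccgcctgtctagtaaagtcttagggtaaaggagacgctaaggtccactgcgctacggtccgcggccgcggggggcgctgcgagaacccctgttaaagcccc
A total of 4 core words of the TCF site were searched on both strands of the 250 bases before each start: the word CTTTGAT, its variant with another last base, CTTTGAA, and the like pair of words with another middle, CTTTGTT as well as its variant CTTTGTA. No match was found in the windows of the 4 genes, so no letters are in capitals, and 14.8% of 32817 promoters held at least 1 of the words (3.21% held CTTTGAT). These letters being absent from so short a window says nothing of sites elsewhere in the genes.

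Notum (ENSMUSG00000042988), whose secreted enzyme removes the lipid from Wnt ligands, lies at chr11:120653788-120661175 on the minus strand. It had 4.45, 4.24 and 4.78 CPM in DNTCF4_EZH2, 4.47, 3.65 and 3.15 CPM in DNTCF4_SET, and 2.02, 2.77 and 2.75 CPM in DNTCF4, against 16.8, 17.9 and 17.6 CPM in Vector. Vector lay far above all other libraries, DNTCF4 lay lowest, and neither group with a second construct overlapped DNTCF4, while these 2 overlapped each other. The fall in DNTCF4 against Vector was 6.9-fold (log2 -2.79, SE 0.12, adjusted p = 3.13e-11). Against DNTCF4, Notum rose 1.78-fold in DNTCF4_EZH2 (log2 0.83, SE 0.14, adjusted p = 0.00039) and 1.48-fold in DNTCF4_SET (log2 0.56, SE 0.14, adjusted p = 0.00872). Without DNTCF4_SET replicate 1, the highest of its group, the call in DNTCF4_SET was lost at a log2 fold change of 0.42 (adjusted p = 0.0522), and over the 6 libraries alone it was lost at 0.57 (adjusted p = 0.0501; range over its alternatives 0.000932 to 0.0522). Set against the distance between the DNTCF4 and Vector means in CPM, these rises covered 13.3% of it in DNTCF4_EZH2 and 8.34% in DNTCF4_SET, and Notum stayed below Vector, 3.88-fold in DNTCF4_EZH2 (adjusted p = 5.8e-10) and 4.66-fold in DNTCF4_SET (adjusted p = 1.91e-10). The antisense gene Notumos shares 708 exonic bases with Notum, and whether counting used strand is not stated in the sources, so reads of the pair may have been split between them. Notumos had 12 to 82 counts and was also lower in DNTCF4 than in Vector (log2 -1.91, SE 0.24, adjusted p = 5.38e-06), but it did not follow Notum in DNTCF4_EZH2 against DNTCF4 (log2 0.07, adjusted p = 0.891) or in DNTCF4_SET against DNTCF4 (log2 -0.21, adjusted p = 0.637).

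Znrf3 (ENSMUSG00000041961, chr11:5276324-5444847, minus strand), a membrane ubiquitin ligase that clears Frizzled receptors from the surface, had 27.1, 26.3 and 27.2 CPM in DNTCF4_EZH2, 27.1, 24 and 26.3 CPM in DNTCF4_SET, and 24.8, 27.1 and 26.6 CPM in DNTCF4, against 34.6, 34 and 37.3 CPM in Vector. As with Axin2, the 9 libraries with the dominant negative construct overlapped and lay below Vector. The fall in DNTCF4 was small but well outside the spread, at 1.35-fold (log2 -0.43, SE 0.058, adjusted p = 1.31e-05). The difference to DNTCF4 was 0.04 in DNTCF4_EZH2 (95% interval -0.09 to 0.16, adjusted p = 0.677) and -0.02 in DNTCF4_SET (-0.14 to 0.11, adjusted p = 0.857). Its relative Rnf43 (ENSMUSG00000034177, chr11:87662722-87735539, plus strand), which acts on the same receptors, was close to the detection floor. Rnf43 had 7, 6 and 8 counts in DNTCF4_EZH2, 4, 8 and 5 in DNTCF4_SET, and 5, 6 and 6 in DNTCF4, against 2, 3 and 7 in Vector. All groups overlapped. The ratio of summed counts per summed library size in DNTCF4 over Vector was 1.29 (95% interval 0.581 to 2.96, counting error only). A change of the size of Znrf3's thus lay within the interval and was not detectable at this depth.

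Nkd2 (ENSMUSG00000021567, chr13:73818534-73847631, minus strand) encodes a Dishevelled-binding protein. It had 2.29, 2.48 and 3.06 CPM in DNTCF4_EZH2, 4.29, 3.61 and 2.94 CPM in DNTCF4_SET, and 2.29, 2.58 and 2.67 CPM in DNTCF4, against 1.85, 2.29 and 2.1 CPM in Vector. DNTCF4_SET lay above DNTCF4 and Vector without overlap, its lowest library lay within the range of DNTCF4_EZH2, and the other 3 groups overlapped each other. In DNTCF4_SET the rise over Vector was 1.73-fold (log2 0.79, SE 0.17, adjusted p = 0.000821), whereas DNTCF4 against Vector gave 0.28 (SE 0.17, adjusted p = 0.193) and DNTCF4_EZH2 against Vector gave 0.32 (SE 0.17, adjusted p = 0.12). Against DNTCF4 the gene rose 1.43-fold in DNTCF4_SET (log2 0.52, SE 0.16, adjusted p = 0.0272). Leaving out DNTCF4 replicate 1 (0.45, adjusted p = 0.0575), DNTCF4_SET replicate 1 (0.37, adjusted p = 0.14) or DNTCF4_SET replicate 2 (0.51, adjusted p = 0.069) ended that call, as did a fit on the 6 libraries alone (0.52, adjusted p = 0.0541); over all alternatives the adjusted p ran from 0.0112 to 0.14. The direct difference of DNTCF4_EZH2 to DNTCF4_SET was -0.47 (95% interval -0.8 to -0.13) and missed the threshold (adjusted p = 0.107).

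Nkd1 (ENSMUSG00000031661, chr8:88521354-88594884, plus strand), the other Naked gene, had 6, 4 and 2 counts in DNTCF4_EZH2, 5, 4 and 9 in DNTCF4_SET, and 0, 6 and 6 in DNTCF4, against 0, 1 and 2 in Vector. The 3 counts in Vector are a sum over its libraries, each of which lay below the detection floor of 3 counts. Summed counts were divided by the summed library size of their group. Their ratio over Vector was 3.28 in DNTCF4_EZH2 (95% interval 0.885 to 18.1), 5.31 in DNTCF4_SET (1.55 to 28.1) and 3.65 in DNTCF4 (0.984 to 20.1). These intervals cover counting error only, and with no filter on low counts edgeR gave an adjusted p of 0.0551 for DNTCF4_SET against Vector. The part of stray counts in these few reads was not tested.

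Apcdd1 (ENSMUSG00000071847, chromosome 18, plus strand) encodes a membrane glycoprotein described as an inhibitor that binds Wnt and LRP. It had 3.54, 4.15 and 4.38 CPM in DNTCF4_EZH2, 4.43, 4.25 and 3.82 CPM in DNTCF4_SET, and 2.32, 2.51 and 2.64 CPM in DNTCF4, against 0.226, 0.185 and 0.168 CPM in Vector. Vector was lowest, with 15 counts in all, DNTCF4 was above it, and the 2 groups with a second construct were highest and overlapped. At 6, 5 and 4 counts the Vector libraries were close to the detection floor, so the size of each fold over Vector rests on few counts. The rise in DNTCF4 over Vector was 12.6-fold (log2 3.66, SE 0.22, adjusted p = 1.5e-09), the largest change among the 8 genes in that comparison. It rose further over DNTCF4, by 1.61-fold in DNTCF4_EZH2 (log2 0.69, SE 0.12, adjusted p = 0.000818) and 1.67-fold in DNTCF4_SET (log2 0.74, SE 0.12, adjusted p = 0.000496), reaching 20.3-fold over Vector in DNTCF4_EZH2 and 21-fold in DNTCF4_SET.

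Bambi (ENSMUSG00000024232, chromosome 18, plus strand), a decoy receptor without a kinase domain that damps TGF-beta and BMP signalling and is also a Wnt target, behaved likewise. It had 4.13, 3.46 and 4.28 CPM in DNTCF4_EZH2, 3.5, 4.59 and 4.06 CPM in DNTCF4_SET, and 1.87, 1.75 and 1.94 CPM in DNTCF4, against 0.753, 0.702 and 0.796 CPM in Vector. The 4 groups formed 3 separate levels, with the groups that carry a second construct overlapping at the top. Bambi rose 2.46-fold in DNTCF4 over Vector (log2 1.3, SE 0.19, adjusted p = 2.43e-05), and over DNTCF4 it rose 2.14-fold in DNTCF4_EZH2 (log2 1.1, SE 0.14, adjusted p = 3.68e-05) and 2.19-fold in DNTCF4_SET (log2 1.13, SE 0.14, adjusted p = 3.27e-05). The processed copy Bambi-ps1, which could take some of its reads, had 0 to 5 counts per library. For Apcdd1 and Bambi the second constructs thus went with levels farther from Vector, not nearer to it. Between DNTCF4_EZH2 and DNTCF4_SET the log2 differences were -0.05 for Apcdd1 (95% interval -0.3 to 0.2) and -0.03 for Bambi (-0.3 to 0.23).

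**Figure D2:**
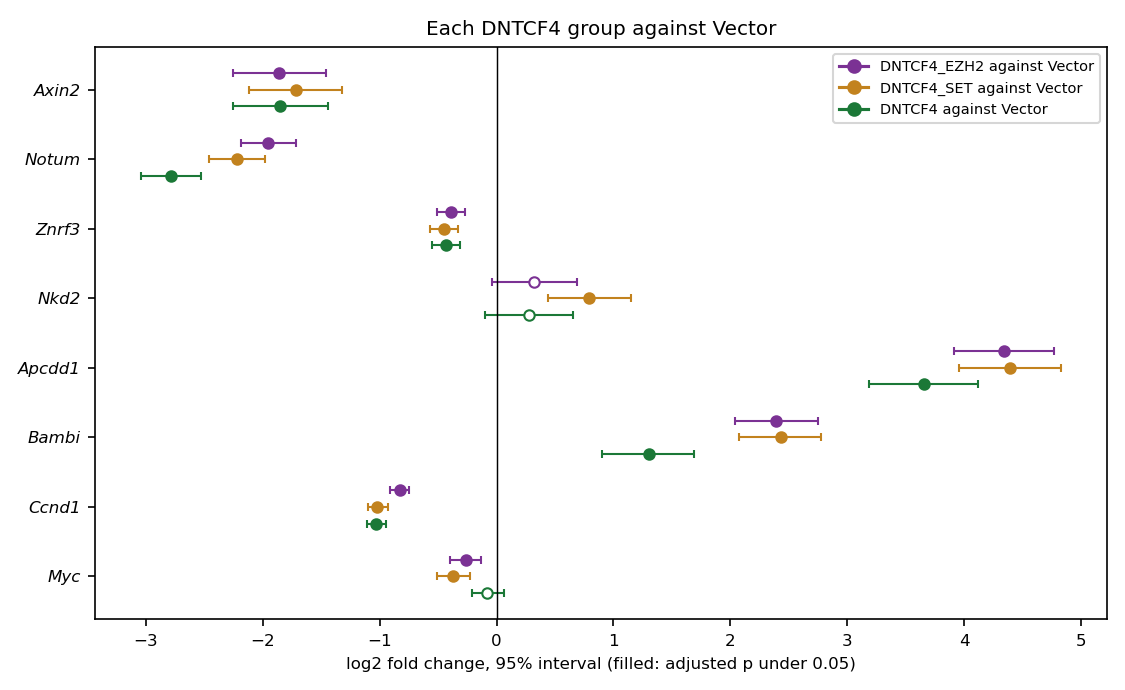
Log2 fold change against Vector (horizontal axis) of the 8 tested genes in DNTCF4_EZH2, DNTCF4_SET and DNTCF4, with 95% intervals; filled points passed an adjusted p of 0.05. Apcdd1 lies at 3.66 to 4.39 and Notum at -2.79 to -1.96, while Axin2 lies between -1.86 and -1.72 in the 3 groups; the 3 comparisons share the Vector libraries.

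Ccnd1 (ENSMUSG00000070348, chr7:144929931-144939925, minus strand) encodes cyclin D1, which drives cells out of G1 with CDK4 or CDK6. It had 184, 186 and 196 CPM in DNTCF4_EZH2, 170, 163 and 165 CPM in DNTCF4_SET, and 171, 161 and 162 CPM in DNTCF4, against 325, 341 and 343 CPM in Vector. DNTCF4_SET and DNTCF4 overlapped, DNTCF4_EZH2 lay just above both, and Vector was far higher. The fall in DNTCF4 against Vector was 2.04-fold (log2 -1.03, SE 0.039, adjusted p = 6.34e-12). Ccnd1 rose over DNTCF4 in DNTCF4_EZH2 by 1.15-fold (log2 0.2, SE 0.039, adjusted p = 0.00154), covering 14.1% of the distance to Vector in CPM, and in DNTCF4_SET its difference was 0.01 (95% interval -0.07 to 0.1, adjusted p = 0.823). Tested directly, DNTCF4_EZH2 exceeded DNTCF4_SET by 0.18 (SE 0.039, adjusted p = 0.0119). This small difference missed the threshold without DNTCF4_EZH2 replicate 3 (0.16, adjusted p = 0.0695), without DNTCF4_SET replicate 2 (0.17, adjusted p = 0.0654) and without DNTCF4_SET replicate 3 (0.18, adjusted p = 0.0609), of a range of 0.000583 to 0.0695. The gene LTO1 on the other strand shares 1100 exonic bases with Ccnd1; it had 629 to 965 counts where Ccnd1 had 4346 to 9229, and it moved the other way, by 0.25 in DNTCF4 against Vector (adjusted p = 0.000845) and by -0.15 in DNTCF4_EZH2 against DNTCF4 (adjusted p = 0.0376).

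Myc (ENSMUSG00000022346, chr15:61985391-61990374, plus strand), the growth regulator that is a classical target in colon cancer cells, had 201, 205 and 206 CPM in DNTCF4_EZH2, 193, 194 and 179 CPM in DNTCF4_SET, and 200, 254 and 241 CPM in DNTCF4, against 242, 248 and 243 CPM in Vector. The DNTCF4 libraries spread widely: replicate 1, the library that stood apart, lay close to DNTCF4_EZH2, and the others lay close to Vector. DNTCF4 against Vector gave -0.08 (95% interval -0.21 to 0.06, adjusted p = 0.325). That value turned to 0.01 without DNTCF4 replicate 1 (adjusted p = 0.737) and passed at -0.15 without DNTCF4 replicate 2 (adjusted p = 0.0418, the lowest over its alternatives). Against Vector, Myc fell in DNTCF4_EZH2 (log2 -0.26, SE 0.065, adjusted p = 0.00263) and in DNTCF4_SET (log2 -0.37, SE 0.065, adjusted p = 0.000156), and neither group overlapped Vector. It was also lower in DNTCF4_SET than in DNTCF4 (log2 -0.3, SE 0.065, adjusted p = 0.00355). In DNTCF4_EZH2 against DNTCF4 it passed narrowly (log2 -0.19, SE 0.064, adjusted p = 0.0456), with overlapping groups, and adjusted p-values ran from 3.56e-06 to 0.184 over the alternatives. The call was lost without DNTCF4 replicate 2 (-0.11) or 3 (-0.15) and without DNTCF4_EZH2 replicate 1 (-0.18), 2 (-0.19) or 3 (-0.19), and it was -0.28 without DNTCF4 replicate 1. It was also lost with DESeq2 size factors (-0.18), with limma on the deposited rlog values (-0.12) and over the 6 libraries alone (-0.18).

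**Figure D3:**
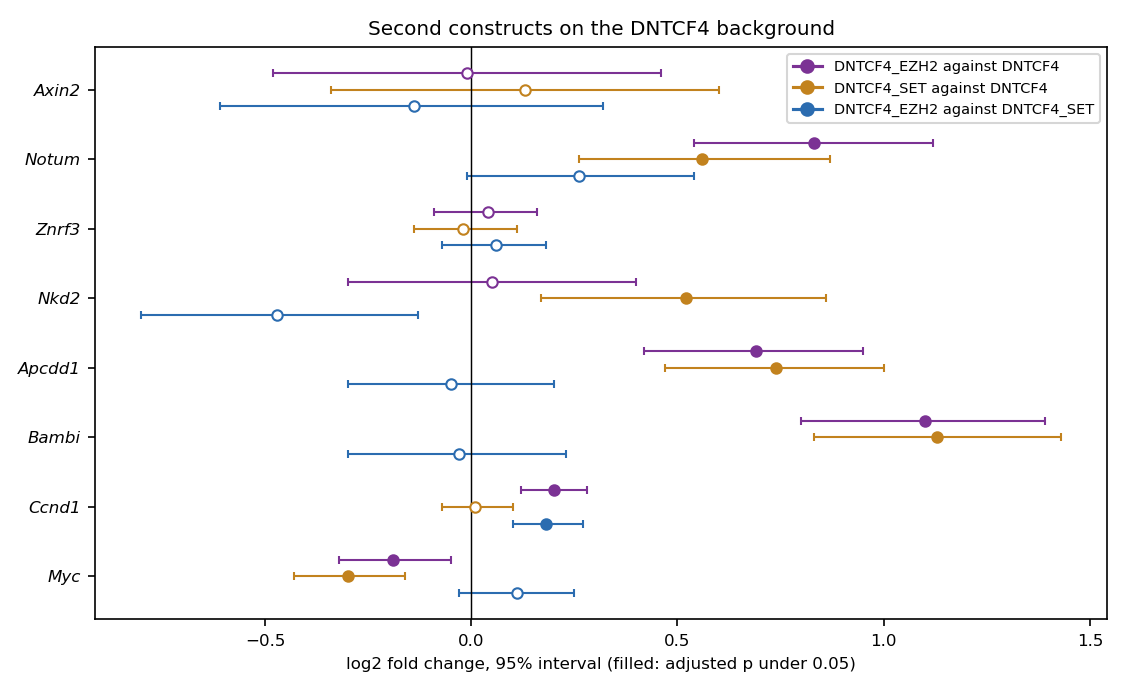
Log2 fold change (horizontal axis) of the 8 tested genes in DNTCF4_EZH2 against DNTCF4, DNTCF4_SET against DNTCF4 and DNTCF4_EZH2 against DNTCF4_SET, with 95% intervals; filled points passed an adjusted p of 0.05. Notum, Apcdd1 and Bambi lie right of 0 against DNTCF4 in both groups, Axin2 and Znrf3 lie about 0, and between DNTCF4_EZH2 and DNTCF4_SET only Ccnd1 passed, at 0.18.

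Other Wnt target genes also changed in both directions. Of 28 listed, 20 were tested: in DNTCF4 against Vector 8 rose, 8 fell and 4 did not pass, and their median log2 fold change was 0.12, beside 0.01 over all genes. Among all genes tested, 29.5% rose and 28% fell in that comparison. The CCN genes Ccn5 and Ccn4, once named for their induction by Wnt, fell. Ccn5 averaged 14.9 ± 0.801 CPM in DNTCF4 and 38.2 ± 0.887 CPM in Vector (log2 -1.36, SE 0.055, adjusted p = 1.55e-11), and Ccn4 averaged 15.2 ± 1.65 CPM in DNTCF4 and 34.9 ± 0.845 CPM in Vector (log2 -1.2, SE 0.067, adjusted p = 6.34e-10). The growth factor gene Vegfa and the transcription factor gene Sox4 rose instead, by 0.73 and 0.8. In DNTCF4_EZH2 against DNTCF4, Ccn4, Ccn5 and Birc5 rose by 0.27, 0.44 and 0.33, and Sox4, Jag1, Fst and Vegfa fell, by -0.19 to -0.13 for Sox4, Fst and Vegfa and by -0.33 for Jag1. In DNTCF4_SET against DNTCF4, Fst and Vegfa fell (-0.16 and -0.19), and the other 18 did not pass. Over all genes, 13% rose and 12.5% fell in DNTCF4_EZH2 against DNTCF4, and 12.7% rose and 13.3% fell in DNTCF4_SET against DNTCF4. The difference between the 2 second constructs passed for Ccn5 (0.3, adjusted p = 0.00559) and Birc5 (0.25, adjusted p = 0.00389), which were higher in DNTCF4_EZH2 than in DNTCF4_SET, and for Sox4 (-0.19) and Jag1 (-0.29), which were lower.

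The other Wnt inhibitors were also divided. Of 25 listed, 13 were tested, and in DNTCF4 against Vector 6 rose, 3 fell and 4 did not pass (median 0.1), where 29.5% of all genes rose and 28% fell. Dkk3, a secreted Dickkopf family member, averaged 9.52 ± 0.565 CPM in DNTCF4 and 56 ± 1.54 CPM in Vector (log2 -2.56, SE 0.062, adjusted p = 3.33e-14), a fall close to that of Notum. Sfrp1, a secreted Frizzled-like decoy, averaged 16.4 ± 0.9 CPM in DNTCF4 and 33 ± 0.573 CPM in Vector (log2 -1.01, SE 0.053, adjusted p = 3.42e-10). Dact1, a Dishevelled-binding protein, rose 2.43-fold and Gsk3b, a kinase of the degradation complex, rose 1.42-fold. With the second constructs more genes of the list rose than fell: in DNTCF4_EZH2 against DNTCF4 4 rose, 1 fell and 8 did not pass (median 0.14), and in DNTCF4_SET against DNTCF4 8 rose and 5 did not pass (median 0.18). Of all genes tested, 13% rose and 12.5% fell in DNTCF4_EZH2 against DNTCF4, 12.7% rose and 13.3% fell in DNTCF4_SET against DNTCF4, and the median was 0 in both. The inhibitor that fell in DNTCF4_EZH2 was Axin1 (log2 -0.16, adjusted p = 0.0082), the constitutive scaffold of the degradation complex, and those that rose there were Sfrp1, Dkk3, Ctnnbip1 (0.17) and Tpbg (0.14). Sfrp1 stood at 27.5 ± 0.346 CPM in DNTCF4_EZH2 and 25.2 ± 0.948 CPM in DNTCF4_SET, against 16.4 ± 0.9 CPM in DNTCF4 (log2 0.75 and 0.62, adjusted p = 7.73e-08 and 8.99e-07). Dkk3 rose over DNTCF4 by 0.49 in DNTCF4_EZH2 and 0.34 in DNTCF4_SET and, like Notum, remained nearer to DNTCF4 than to Vector.

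Around the receptors and the ligand, no single direction was seen. Of the R-spondin axis, the ligands, receptors and co-receptors that Znrf3 and Rnf43 act with, 15 of 19 were tested, and in DNTCF4 against Vector 4 rose, 6 fell and 5 did not pass (median -0.21). The shares over all genes were 29.5% higher and 28% lower. The ligand gene Rspo3, whose protein inhibits Znrf3 and Rnf43, averaged 2.5 ± 0.441 CPM in DNTCF4 and 0.427 ± 0.135 CPM in Vector (log2 2.53, SE 0.22, adjusted p = 1.44e-07). Its receptor gene Lgr6 averaged 13.3 ± 0.847 CPM in DNTCF4 and 31.5 ± 0.653 CPM in Vector (log2 -1.24), and the Frizzled genes Fzd1 and Fzd2 fell by -1.02 and -0.6. Other Frizzled genes went the other way: Fzd3 averaged 4.33 ± 0.259 CPM in DNTCF4 and 0.499 ± 0.463 CPM in Vector (log2 3.06, SE 0.32, adjusted p = 7.99e-07), and Fzd5 averaged 44.2 ± 3.36 CPM in DNTCF4 and 35.8 ± 1.92 CPM in Vector (log2 0.3, adjusted p = 0.0013). The fourth that rose was the co-receptor gene Lrp5, by 0.31, and Lgr4, Fzd7 and Fzd8 also fell, by -0.34, -0.21 and -0.31. Rspo3 rose again over DNTCF4, to 4.05 ± 0.297 CPM in DNTCF4_EZH2 (log2 0.7, adjusted p = 0.00249) and 5.06 ± 0.347 CPM in DNTCF4_SET (log2 1.02, adjusted p = 0.000116), in the manner of Apcdd1 and Bambi. In the list of Wnt secretion, glypican and Dishevelled genes, 8 of 11 were tested, and 5 rose, 2 fell and 1 did not pass in DNTCF4 against Vector (median 0.29). Beside these stand the same shares over all genes, 29.5% and 28%. The 2 that fell were Gpc1 (271 ± 12.9 CPM in DNTCF4 and 378 ± 2.28 CPM in Vector), of the class of surface proteins that Notum binds, and Wls (100 ± 11.6 CPM in DNTCF4 and 156 ± 1.93 CPM in Vector), which carries Wnt ligands to the surface. Gpc6 rose 3.86-fold and Gpc4 1.23-fold, and the Dishevelled genes Dvl1, Dvl2 and Dvl3 rose 1.33-fold, 1.21-fold and 1.26-fold.

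**Figure D4:**
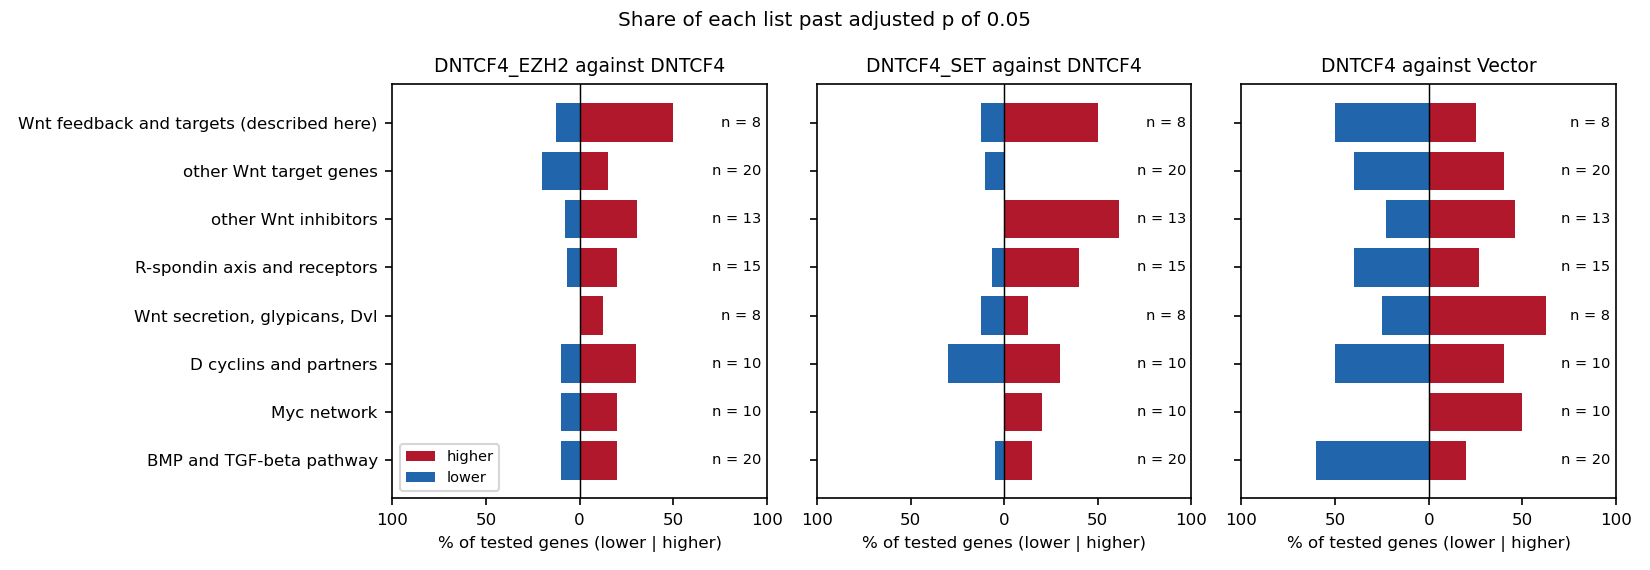
Share of the tested genes of each list that passed an adjusted p of 0.05 (horizontal axis, in percent; higher to the right, lower to the left) in DNTCF4_EZH2 against DNTCF4, DNTCF4_SET against DNTCF4 and DNTCF4 against Vector, with the number tested. Of the 13 other Wnt inhibitors 8 rose in DNTCF4_SET against DNTCF4, and of the 20 genes of the BMP and TGF-beta list 12 fell in DNTCF4 against Vector. Over all genes tested, 12.7% rose in the former comparison and 28% fell in the latter.

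Among the partners of cyclin D1, the kinase gene Cdk6 fell with it, Cdk4 was lower by less, and the other genes of the list were divided. Of the 10 tested genes of the D cyclin list (11 listed), 4 rose, 5 fell and 1 did not pass in DNTCF4 against Vector (median -0.09), where 29.5% of all genes rose and 28% fell. Cdk6, a kinase partner of the D cyclins, averaged 183 ± 1.59 CPM in DNTCF4_EZH2, 168 ± 1.27 CPM in DNTCF4_SET and 168 ± 5.89 CPM in DNTCF4, against 336 ± 8.56 CPM in Vector. It fell by -1 in DNTCF4 against Vector (SE 0.035, adjusted p = 2.25e-12) and rose by 0.12 in DNTCF4_EZH2 against DNTCF4 (adjusted p = 0.0151). Cdk4, the other kinase partner, averaged 181 ± 5.63 CPM in DNTCF4 and 209 ± 4.14 CPM in Vector. The CDK inhibitor genes did not share a direction: Cdkn1a rose 2.2-fold and Cdkn2c 1.52-fold in DNTCF4 against Vector, and Cdkn2a fell 1.37-fold. In the network around Myc, 10 of 11 genes were tested, and 5 rose and 5 did not pass in DNTCF4 against Vector (median 0.26). Beside these counts, 29.5% of all genes rose and 28% fell. The genes that rose included Mxd1, Mxi1 and Mxd4, whose proteins compete with Myc for Max: Mxd1 averaged 56.8 ± 1.84 CPM in DNTCF4 and 25.7 ± 0.601 CPM in Vector (log2 1.15, adjusted p = 1.81e-11), and Mxi1 averaged 239 ± 15.7 CPM in DNTCF4 and 126 ± 2.73 CPM in Vector (log2 0.92). Mga, another partner of Max, rose by 0.25.

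**Figure D5:**
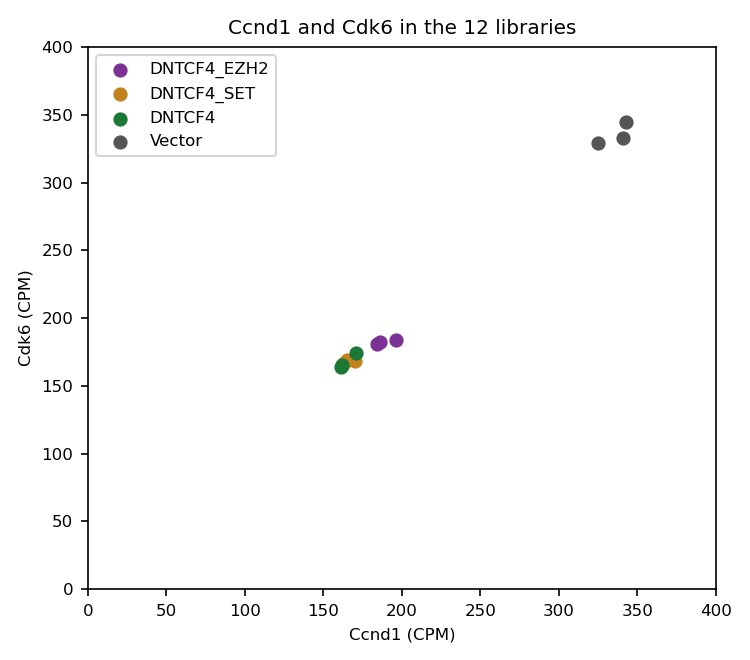
CPM of Cdk6 (vertical axis) against CPM of Ccnd1 (horizontal axis) in the 12 libraries of the 4 groups, both from 0. The Vector libraries stand apart at 325 to 343 CPM of Ccnd1 and 329 to 345 CPM of Cdk6, and the DNTCF4_EZH2 libraries lie just above those of DNTCF4_SET and DNTCF4.

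Bambi's rise stood against a list that mostly fell. Of 21 genes of the BMP and TGF-beta pathway 20 were tested, and 4 rose, 12 fell and 4 did not pass in DNTCF4 against Vector (median -0.21, beside 0.01 over all genes), where 29.5% of all genes rose and 28% fell. The BMP antagonist gene Grem1 averaged 200 ± 14.9 CPM in DNTCF4 and 370 ± 1.37 CPM in Vector (log2 -0.89, SE 0.045, adjusted p = 2.18e-10), and the ligand gene Bmp4 averaged 50.8 ± 2.63 CPM in DNTCF4 and 101 ± 2.51 CPM in Vector (log2 -0.99). Smad7 and Smurf1, which like Bambi restrain TGF-beta signalling, rose 1.47-fold and 1.36-fold, and Bmp2 and Smad1 rose 1.28-fold and 1.18-fold. Smad6 and Smurf2, relatives of Smad7 and Smurf1, were lower in DNTCF4. Smad6 averaged 9.4 ± 0.919 CPM in DNTCF4 and 12.9 ± 1.1 CPM in Vector. Smurf2 averaged 116 ± 8.73 CPM in DNTCF4 and 141 ± 3.03 CPM in Vector. Of the 20, 4 rose and 2 fell in DNTCF4_EZH2 against DNTCF4, and 3 rose and 1 fell in DNTCF4_SET against DNTCF4, Bmp4 and Smad7 not among them. The shares over all genes were 13% higher and 12.5% lower in the former comparison, and 12.7% higher and 13.3% lower in the latter. Those that rose in DNTCF4_EZH2 were Bmp2 (0.25), Bmpr2 (0.17), Id1 (0.3) and Smad9 (0.3), and those that rose in DNTCF4_SET were Bmp2 (0.34), Bmpr2 (0.31) and Smad4 (0.1). Grem1 was lower than in DNTCF4 in both groups, by -0.28 in DNTCF4_EZH2 and -0.27 in DNTCF4_SET, and Smurf1 fell in DNTCF4_EZH2 by -0.12.

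The 2 genes nearest in pattern to each of the 8 were found by Pearson's r of log2 CPM over the 12 libraries, among 11714 genes. These coefficients are descriptions: all points share the same libraries, and the 4 groups set most of the spread. For Axin2 they were Bag2 and Kif1c (r = 0.986 for both), and for Notum they were Fn1, encoding fibronectin, and Nomo1 (r = 0.995 for both). Fn1 averaged 4630 ± 39.5 CPM in DNTCF4_EZH2, 4460 ± 218 CPM in DNTCF4_SET and 3860 ± 263 CPM in DNTCF4, against 8720 ± 344 CPM in Vector, the same order of groups as Notum. Apcdd1 was nearest to Tgfa (r = 0.999) and Saa3 (r = 0.998). Saa3, an acute phase gene, averaged 406 ± 5 CPM in DNTCF4_EZH2, 484 ± 3.56 CPM in DNTCF4_SET and 279 ± 26 CPM in DNTCF4, against 19.7 ± 1.52 CPM in Vector. Bambi was nearest to Ccdc85a (r = 0.989) and Myh10 (r = 0.987), Znrf3 to Anks6 (r = 0.977) and Zfp213 (r = 0.974), and Nkd2 to Arhgef28 (r = 0.925) and Slc39a7 (r = 0.92). Ccnd1 was nearest to Cdk6 (r = 0.997) and Nf2 (r = 0.994). Myc was nearest to Ppan and Prpsap1 (r = 0.964 for both), and Ppan, a ribosome biogenesis gene, averaged 47.1 ± 1.71 CPM in DNTCF4_EZH2, 44.3 ± 1.58 CPM in DNTCF4_SET and 56.5 ± 6.9 CPM in DNTCF4, against 65.6 ± 2.26 CPM in Vector.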

How the data were processed

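Total RNA of 12 libraries, 3 in each of 4 groups, was sequenced, and each library's group and number come from its title. The authors deposited expected counts per gene, which are not normalised and were whole numbers in every cell, and rlog values, which are regularised log2 counts. Per the submitters' processing notes the build was GRCm38 and the tools were RSEM 1.3.3, STAR 2.7.8a, cutadapt 2.3, FastQC 0.11.8 and DESeq2, with no settings, and strand use is not stated. These deposited counts were tested with edgeR 4.0.16 (TMM scaling, filterByExpr with a minimum of 10 counts and 15 in total, quasi-likelihood test, two-sided), with 1 fit over all 12 libraries and Benjamini-Hochberg adjustment over 15052 genes. An SE is the log2 fold change divided by the square root of its F value. Positions and exon lengths were taken from GENCODE for GRCm38 by identifier (55227 of 55492 matched). Intervals of low counts are exact and cover counting error only. RSEM shares reads among similar genes, so values of near-identical copies depend on that model.

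The genes and the gene lists were chosen with earlier results of these data known, and no list was tested as a set. Named genes were the 10 genes, the 2 nearest in pattern to each tested one (mean of at least 1 CPM, no predicted models), up to 4 called genes with the smallest p in DNTCF4 against Vector from each list, and, where a count was 5 or fewer, members of it that were chosen after their values were seen. Smad6 and Smurf2 were also named after their values were seen. All 6 genes of the R-spondin axis that fell in DNTCF4 against Vector were named too, which goes beyond this rule. The alternatives were DESeq2 size factors, the DESeq2 1.42.0 Wald test, limma 3.58.1 on the deposited rlog values, no filter, a filter at a mean of 1 CPM, a replicate block, a fit on the 6 libraries of each comparison, and each library left out in turn. Promoter sequences are RefSeq's (GRCm38.p6).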

Additional observations from a re-analysis of the deposited data

Results flagged for a closer look

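Ccnd1 responded unequally to the 2 second constructs on the DNTCF4 background, by the test of the difference itself: DNTCF4_EZH2 exceeded DNTCF4_SET by 0.18 in log2 units, with an SE of 0.039 (edgeR's quasi-likelihood test, adjusted p = 0.0119; range over its alternatives 0.000583 to 0.0695). All 3 DNTCF4_EZH2 libraries (184, 186 and 196 CPM) lay above all 3 DNTCF4_SET libraries (170, 163 and 165 CPM). Counts on Ezh2 ran the other way, at 428 to 469 CPM in DNTCF4_EZH2 and 509 to 574 CPM in DNTCF4_SET, and those on Tcf7l2 were 43.4 to 46.6 CPM in DNTCF4_EZH2 and 32.5 to 37.8 CPM in DNTCF4_SET. Their part in the difference was not tested. The direct test passed for Ccnd1 alone among the 8 genes, where 5.16% of all genes tested passed.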

How the results depend on the processing

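Over 13 alternatives for each of 8 genes in 6 comparisons, 591 of 624 values kept their direction and their side of the threshold, 17 lost a call, 3 gained one and 13, none of them called, changed sign, judged before rounding. In DNTCF4 against Vector and in both other comparisons with Vector, no call of the 8 genes was lost. Fitted on only the 6 libraries compared, DNTCF4_SET against DNTCF4 called 2532 genes in place of 3914 and 3 of the 8 in place of 5, and DNTCF4_EZH2 against DNTCF4_SET called 2177 in place of 777 and 3 of the 8 (Ccnd1, Nkd2 at adjusted p = 0.0496, Myc at 0.0298) in place of 1; the cause was not tested. With each library left out in turn, 3 to 5 of the 8 genes passed in DNTCF4_SET against DNTCF4. Among all genes, 2917 to 4837 passed there, of 15639 to 15675 tested. In DNTCF4_EZH2 against DNTCF4_SET, 0 to 1 of the 8 passed, where 359 to 439 of all genes passed, of 15626 to 15672 tested. Of the genes called there 58% were higher in DNTCF4_EZH2, but 49.5% with DESeq2 size factors, 47.3% with the DESeq2 Wald test and 46.4% with limma on rlog values.

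Leaving out a library turned small uncalled values round. Myc in DNTCF4 against Vector ran from -0.15 to 0.01. For DNTCF4_EZH2 against DNTCF4, Axin2 ran from -0.09 to 0.1, Nkd2 from -0.08 to 0.14 and Znrf3 from 0 to 0.07. For DNTCF4_SET against DNTCF4, Znrf3 ran from -0.06 to 0.03 and Ccnd1 from 0 to 0.04. Between DNTCF4_EZH2 and DNTCF4_SET, Apcdd1 ran from -0.11 to 0.04 and Bambi from -0.12 to 0.06. The rlog values are shrunk, so their fold changes are smaller (Axin2 -0.37 in DNTCF4 against Vector).

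Replicate numbers did not pair the libraries. Each library's deviations from its group's mean log2 CPM were correlated with those of the same-numbered library of another group. These correlations of deviations ran from -0.0906 to 0.151. The fit with the replicate block called 8584 genes for DNTCF4 against Vector, 3713 for DNTCF4_EZH2 and 3736 for DNTCF4_SET against DNTCF4, 638 between DNTCF4_EZH2 and DNTCF4_SET, and 8553 and 8592 for DNTCF4_EZH2 and DNTCF4_SET against Vector. The block changed no call of the 8 genes. Depth limits Nkd1 and Rnf43, which had 0 to 9 counts a library.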

Other observations

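Several further Wnt genes had too few counts to be tested, and their sums over the 3 libraries of a group are given here without a test, chosen after their values were seen. Lef1, the LEF factor gene that Wnt signalling itself induces, had 3 counts in DNTCF4_EZH2, 11 in DNTCF4_SET and 1 in DNTCF4, against 41 in Vector, of which 26 were in replicate 2. Lgr5, an R-spondin receptor gene and stem cell marker, had 2 counts in DNTCF4_EZH2, 4 in DNTCF4_SET and 0 in DNTCF4, against 33 in Vector, of which 23 were in replicate 2. The inhibitor gene Dkk2 had 7 counts in DNTCF4_EZH2, 5 in DNTCF4_SET and 1 in DNTCF4, against 22 in Vector, of which 15 were in replicate 2 and 7 in the other libraries. The inhibitor gene Sost had 3 in DNTCF4_EZH2, 4 in DNTCF4_SET and 0 in DNTCF4, against 16 in Vector, at 4, 7 and 5. Sostdc1, a relative of Sost, had 0 in DNTCF4_EZH2, 4 in DNTCF4_SET and 2 in DNTCF4, against 18 in Vector, of which 14 were in replicate 2. The cyclin gene Ccnd2 had 5 in DNTCF4_EZH2, 10 in DNTCF4_SET and 0 in DNTCF4, against 24 in Vector, of which 17 were in replicate 2. That library also had the most receptor genes with a stray count, 774. The R-spondin gene Rspo2 went the other way, with 30 counts in DNTCF4_EZH2, 34 in DNTCF4_SET and 11 in DNTCF4, against 1 in Vector. Stray counts had a like order: of 2003 receptor genes of smell and pheromone sensing, the number with a count was 241 to 311 in DNTCF4_EZH2, 325 to 472 in DNTCF4_SET and 69 to 81 in DNTCF4, against 550 to 774 in Vector. The part of stray counts of this kind in the low sums was not tested.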
